A study of Pinus pinaster with 6 samples.

Results

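Wood laid down in the crown of a conifer and wood laid down at the base of an adult trunk differ in cell wall structure and are generally described as juvenile and mature wood. Both are made by developing xylem, the layer of young cells between the cambium and the finished wood. These cells expand, deposit a secondary wall of cellulose, hemicelluloses and lignin, and then die, so their RNA is generally rich in transcripts of wall synthesis, lignin synthesis and the regulators that order these steps. Which genes stand behind the values below was not read, because the files do not pair array IDs with genes and no table of names was used here. The results therefore describe array IDs and their ratios between the tissues, and no gene, pathway or marker of a cell type could be checked.

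The group described here is made of 65 of the 4224 array IDs (1.54%), the ones with strongly positive log2 ratios of crown and base xylem. The members were chosen by the deposited ratios themselves: an ID belongs if its mean log2 ratio over 3 trees was at least 1, which is a 2-fold difference, and if its value was above 0 on all 6 arrays. The sign condition removed 0 IDs. Every ID with a mean of at least 1 was positive on all arrays. No filter on low values was applied here, and single-channel intensities were not analysed. Whether spots were filtered before deposit is not known. The choice fixes the sign and the size of the mean, so these are given as a description, and only differences between trees are tested.

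The arrays were 2-colour cDNA arrays on which crown and base RNA of the same maritime pine (Pinus pinaster) were hybridised together. The trees were straight, field-grown adults in Spain, and both tissues were scraped from the trunk after removal of bark and phloem, crown tissue at the last 5 internodes and base tissue within 1 m of the ground. Tree 1 (29 years old) and tree 2 (31 years old) were harvested in May 2005, and tree 3 (28 years old) in May 2007. Crown RNA was labelled with the dye Cy5 in tree 1 and with Cy3 in trees 2 and 3, and base RNA with the other dye each time. Each tree had 2 technical arrays, so n is 3 trees for every mean over trees. Tests between trees rest on the spread between the 2 technical arrays of each tree. A scraping of whole developing xylem mixes cell types, and fewer cells of a type cannot be told apart from less RNA per cell.

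The labels do not settle which tissue a positive ratio favours, nor whether the tree with swapped dyes was turned before deposit. A positive ratio means higher expression in crown xylem if the array titles, which name the crown first, describe it, and higher expression in base xylem if the ratios follow the dyes of trees 2 and 3. If the ratios follow the dyes and tree 1 was not turned, a positive ratio favours opposite tissues in tree 1 and in trees 2 and 3. A mean over trees would then be no difference between the tissues. Ratios below are therefore called positive or negative, and fold values rest on a log base of 2, which the files do not state. Turning the sign of tree 1 left 0 IDs that meet the rule, so the group was found only with the deposited signs. The array medians lay between -0.018 and 0.0023, and the standard deviation of all ratios was 0.463 and 0.448 for tree 1 against 0.374 to 0.380 for the other 4 arrays.

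The mean log2 ratios of the 65 IDs ran from 1.00 to 1.95 with a median of 1.16, which is a 2.24-fold difference. Most members lay near the lower end: 11 of 65 had a mean of at least 1.5, and 8 lay between 1 and 1.05. The rule cuts through a continuous run of values, since another 19 IDs had means from 0.95 to under 1 and all 19 were positive on every array. The lowest member, Q4N14, had a mean of 1.00 ± 0.06 (SD, n = 3 trees). The ID just outside, Q8H21, had a mean of 0.9991 ± 0.33 (SD, n = 3 trees), with 1.33 in tree 1, 0.67 in tree 2 and 1.00 in tree 3. All 65 members passed limma's test of the mean against 0 in the positive direction, where 12.2% of all IDs did, and the rule used this same contrast, so nothing is read from that count.

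**Figure D1:**
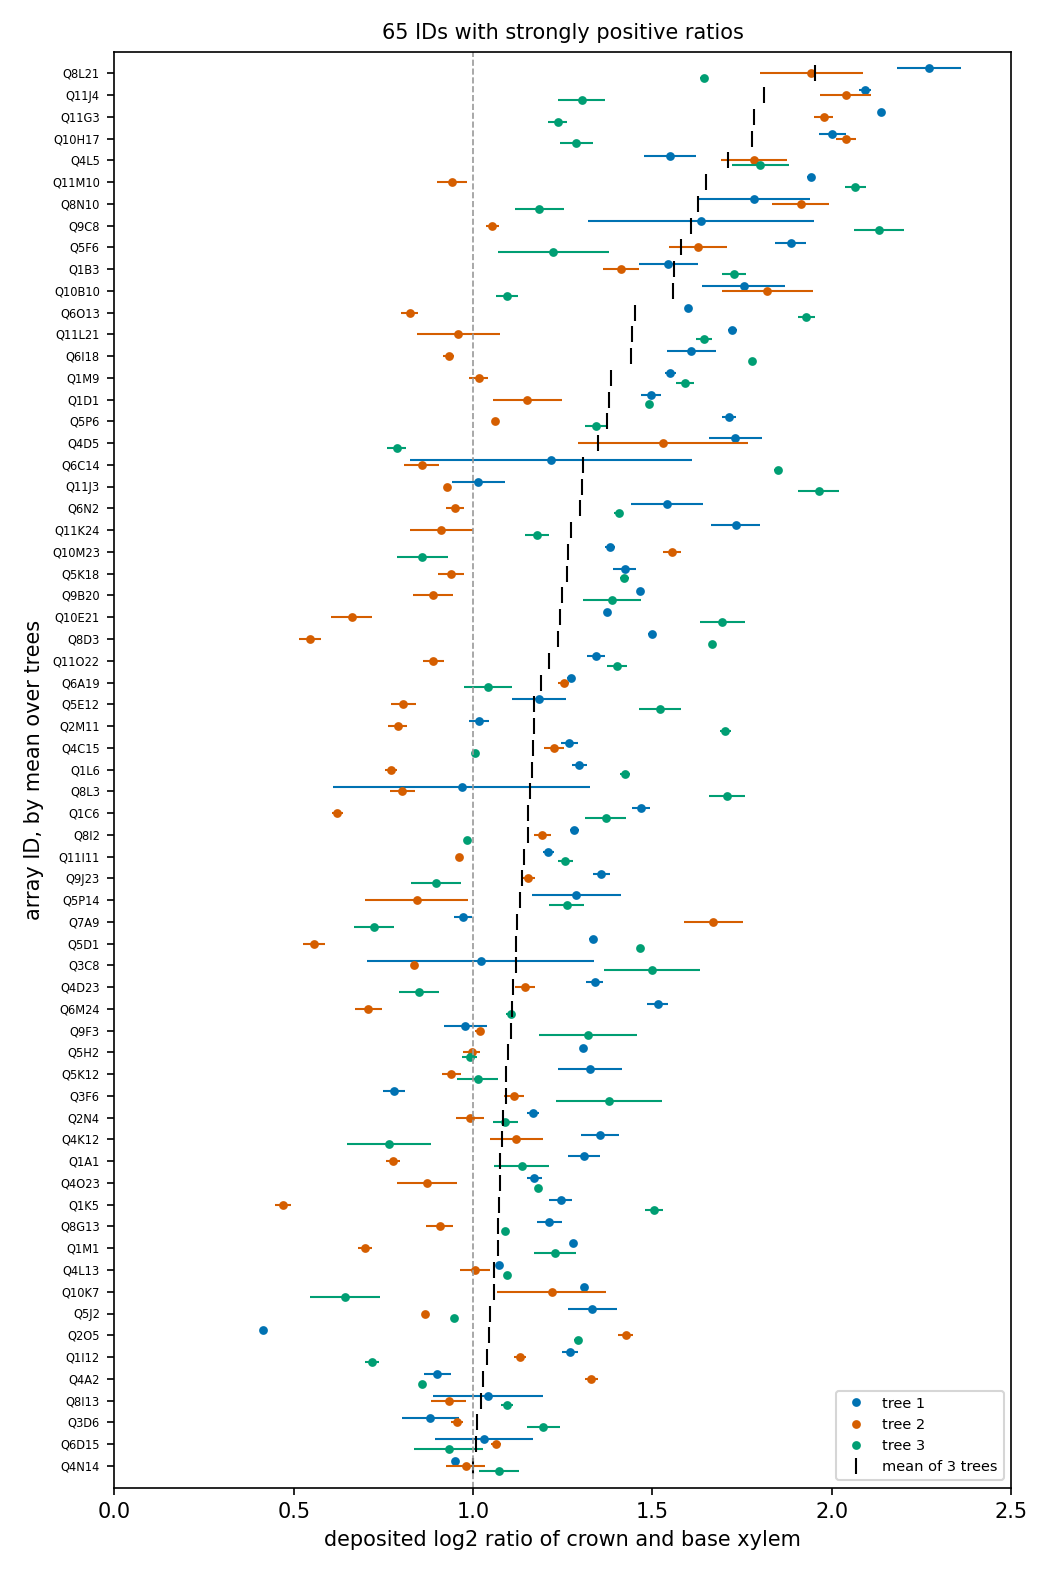
Deposited log2 ratios of crown and base xylem (horizontal axis) for the 65 IDs, ordered by their mean; coloured points are the mean of the 2 technical arrays of a tree, the line through a point joins these 2 arrays, the black tick is the mean over trees and the dashed line marks 1. All points lie to the right of 0, from 0.42 to 2.27. With these deposited values tree 2 is the lowest tree at 38 of the 65 IDs (58.5%) and at 38.4% of all IDs. The share is 59.7% among the IDs that are positive on all arrays with means from 0.5 to under 1.

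The 2 largest means belonged to Q8L21 and Q11J4. The log2 ratio of Q8L21 was 2.36 and 2.18 in tree 1, 1.80 and 2.09 in tree 2, and 1.63 and 1.65 in tree 3, a value per array. Its mean was 1.95 ± 0.31 (SD, n = 3 trees), a 3.87-fold difference, and its arrays lay high in all 3 trees. The log2 ratio of Q11J4 was 2.08 and 2.11 in tree 1, 2.11 and 1.97 in tree 2, and 1.37 and 1.24 in tree 3, with a mean of 1.81 ± 0.44 (SD, n = 3 trees). With the deposited values, trees 1 and 2 could hardly be separated at this ID. Both arrays of tree 3 lay below the arrays of the other trees. Once all arrays were brought to one median absolute ratio, the means of Q11J4 were 1.598, 2.324 and 1.502 in trees 1, 2 and 3. Tree 1 then lay nearer to tree 3 than to tree 2, and tree 3 was still the lowest.

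At other members the trees gave nearly one value on the deposited scale. Q4L13 had the smallest range over trees, 0.089, with log2 ratios of 1.06 and 1.08 in tree 1, 0.96 and 1.05 in tree 2, and 1.09 and 1.10 in tree 3. Q4N14 followed with a range of 0.12, with 0.952 and 0.948 in tree 1, 1.03 and 0.925 in tree 2, and 1.02 and 1.13 in tree 3. The arrays of the 3 trees overlapped or nearly met at both IDs. With all arrays brought to one median absolute ratio, the means of Q4L13 were 0.82, 1.14 and 1.26 in trees 1, 2 and 3. Only 13 of the 65 members had a log2 ratio of at least 1 on all 6 arrays, whereas 63 had at least 0.5 on all 6. Counted by tree, 16 members reached 1 in all 3 trees, 42 in exactly 2 and 7 in exactly 1.

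Technical arrays set the precision of these values. The median absolute difference between the 2 arrays of a tree was 0.056, 0.057 and 0.062 on the log2 scale for the members in trees 1, 2 and 3, against 0.066, 0.069 and 0.058 for all IDs. The largest of a member's 3 technical differences was 0.2 or less at 47 of 65 members (72.3%) and at 80.2% of all IDs. It exceeded 0.5 at 4 members (6.15%) and at 1.40% of all IDs. At these 4 members the difference lay in tree 1, where the first array was lower than the second. The member with the largest one was Q6C14, whose arrays in tree 1 gave 0.825 and 1.61, whereas they gave 0.906 and 0.807 in tree 2 and 1.84 and 1.86 in tree 3. The range over trees was larger than the largest technical difference at 63 of the 65 members (96.9%) and at 81.8% of all IDs. The share was 91.6% among the 298 IDs positive on all arrays with means from 0.5 to under 1. It was 100% among the 45 IDs with a mean of -1 or less and 6 negative arrays.

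To ask how far the positive ratios held in a tree that took no part in the choice, the rule was applied to each pair of trees and the ratio was read in the remaining one. Trees 2 and 3, which share a dye order, chose 60 IDs with a median log2 ratio of 1.17. In tree 1, with the dyes swapped, these 60 IDs had a median of 1.29, a 2.44-fold difference. All 60 were above 0 in tree 1, where 48.2% of all IDs were, and 43 (71.7%) were at least 1, where 2.86% of all IDs were. Trees 1 and 2, both harvested in 2005, chose 59 IDs, and in tree 3, harvested in 2007, all 59 were above 0 against 49.0% of all IDs. Of these, 38 (64.4%) were at least 1 against 2.34% of all IDs, and their median in tree 3 was 1.14.

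Which unused tree gave the lowest values depended on the scale of the arrays, and with the deposited values it was tree 2. Trees 1 and 3 chose 95 IDs with a median of 1.16, and in tree 2 their median was 0.83, a 1.78-fold difference. In tree 2, 94 of the 95 were above 0, where 50.0% of all IDs were, and 24 (25.3%) were at least 1, where 0.994% of all IDs were. The lowest value was -0.083. With all arrays brought to one median absolute ratio, it was tree 1. This scaling equalises the median of the absolute log2 ratios of each array, and it shrinks the ratios of tree 1 and widens those of trees 2 and 3. At that scale, trees 2 and 3 chose 97 IDs, all above 0 in tree 1 but with a median of 0.91 there and only 34 (35.1%) at 1 or more. Trees 1 and 3 then chose 79 IDs, of which 78 were above 0 and 41 (51.9%) at least 1 in tree 2, and trees 1 and 2 chose 45, of which all 45 were above 0 and 32 (71.1%) at least 1 in tree 3. Of the 65 members, 51 were also chosen without tree 1, 59 without tree 2 and 51 without tree 3, and 37 were chosen in all 3 cases. The unused tree still shared its IDs, plates and platform with the trees that chose them. Whether tree 1 was turned before deposit is unknown, so a positive ratio there need not favour the same tissue as in trees 2 and 3. These counts therefore describe deposited signs and are no check of a difference between the tissues.

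**Figure D2:**
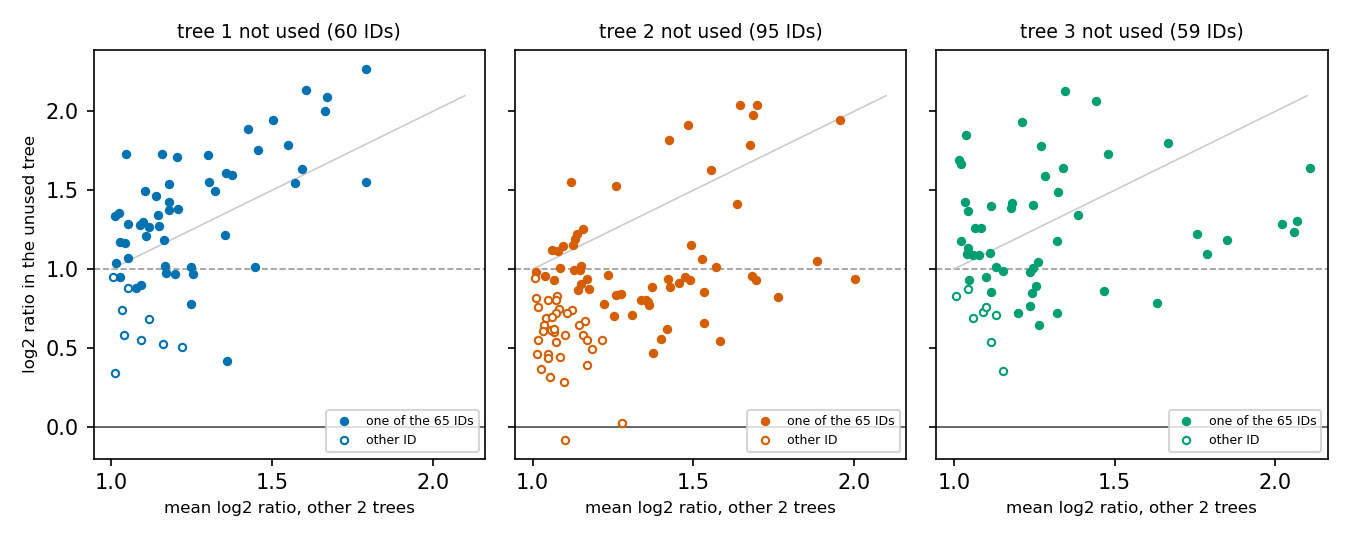
Log2 ratio in a tree that took no part in the choice (vertical axis) against the mean log2 ratio in the 2 trees that chose the IDs (horizontal axis); each point is an ID, filled where it is one of the 65, the dashed line marks 1 and the grey diagonal equal values. All 60 and all 59 IDs lie above 0 when tree 1 or tree 3 is left out, and 94 of 95 do when tree 2 is left out, where 24 reach 1 on this deposited scale.

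Whether the size of the ratio differed between the trees was tested with limma against the spread between technical arrays. This contrast is not the mean that chose the members, although it comes from the same arrays. A call speaks of these 3 trees and their RNA preparations, not of pines in general, because the spread is technical. The ratio differed between trees at 59 of the 65 members (limma F test, adjusted p under 0.05 over 4224 IDs). The test also called 67.5% of all IDs. Among the 298 IDs that were positive on all arrays with means from 0.5 to under 1 the test called 258 (86.6%), and among the 45 IDs with a mean of -1 or less and 6 negative arrays it called 44 (97.8%). The range over the 3 tree means had a median of 0.60 among the members and 0.30 among all IDs.

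Trees 2 and 3, which carried the same dyes, split the members into sets with opposite differences. The ratio was higher in tree 3 than in tree 2 at 35 of 65 members (53.8%) and higher in tree 2 than in tree 3 at 18 (27.7%) (limma, adjusted p under 0.05 over 4224 IDs). Over all IDs, 19.7% passed in the first direction and 9.26% in the second. At the 35 members the median log2 ratio was 0.89 in tree 2 and 1.47 in tree 3, and the differences ran from 0.18 to 1.13. At the 18 members the median was 1.43 in tree 2 and 0.94 in tree 3, and tree 3 minus tree 2 ran from -0.95 to -0.21. The median of tree 1 was nearly the same in both sets, 1.34 at the 35 members and 1.36 at the 18. The members were chosen on a minimum of the mean over the same trees, and what part this choice has in the opposite differences was not tested. The harvest year goes with the tree here, and year and tree cannot be told apart.

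The members with tree 3 above tree 2 included Q11J3, which exceeded the next tree by more than any other member did in tree 3. Its log2 ratio was 0.942 and 1.09 in tree 1, 0.925 and 0.932 in tree 2, and 2.02 and 1.91 in tree 3. Tree 3 stood well above the other trees, with a difference of 1.04 to tree 2 (standard error 0.069 over technical arrays, limma adjusted p = 4.98e-05). Q1K5, singled out after its values were seen as the lowest member in tree 2, had log2 ratios of 1.28 and 1.21 in tree 1, 0.447 and 0.491 in tree 2, and 1.48 and 1.53 in tree 3. Its arrays in tree 2 were the only ones below 1. Q9C8, singled out in the same way as the highest member in tree 3, had 1.32 and 1.95 in tree 1, 1.04 and 1.07 in tree 2, and 2.06 and 2.20 in tree 3. Its technical arrays differed by 0.63 in tree 1, so the size of the ratio there is imprecise. Both arrays of tree 1 still lay above those of tree 2 and below those of tree 3 with the deposited values. At one median absolute ratio the means of Q9C8 were 1.26, 1.20 and 2.46 in trees 1, 2 and 3, and tree 1 lay close to tree 2. With the deposited values, tree 3 lay above tree 2 by 1.08 (limma adjusted p = 0.0028).

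The opposite set included Q7A9, the member at which tree 2 exceeded the next tree by most. Its log2 ratio was 0.946 and 0.998 in tree 1, 1.59 and 1.75 in tree 2, and 0.780 and 0.667 in tree 3, with tree 3 minus tree 2 at -0.95 (limma adjusted p = 9.54e-05). Q11J4, described above, belonged to the same set, with tree 3 minus tree 2 at -0.74 (limma adjusted p = 0.00027). Q10K7, singled out after its values were seen as the lowest member in tree 3, had 1.31 in both arrays of tree 1, 1.37 and 1.07 in tree 2, and 0.546 and 0.740 in tree 3. Among the 10 members with the largest means, 5 passed the test with the higher ratio in tree 2 and 3 with the higher ratio in tree 3. Over all IDs, 9.26% and 19.7% passed in these directions. The 10 were picked by the mean that the rule used, and their counts were not tested. The largest mean itself, at Q8L21, did not pass between trees 2 and 3, with a difference of -0.30 (limma adjusted p = 0.057).

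**Figure D3:**
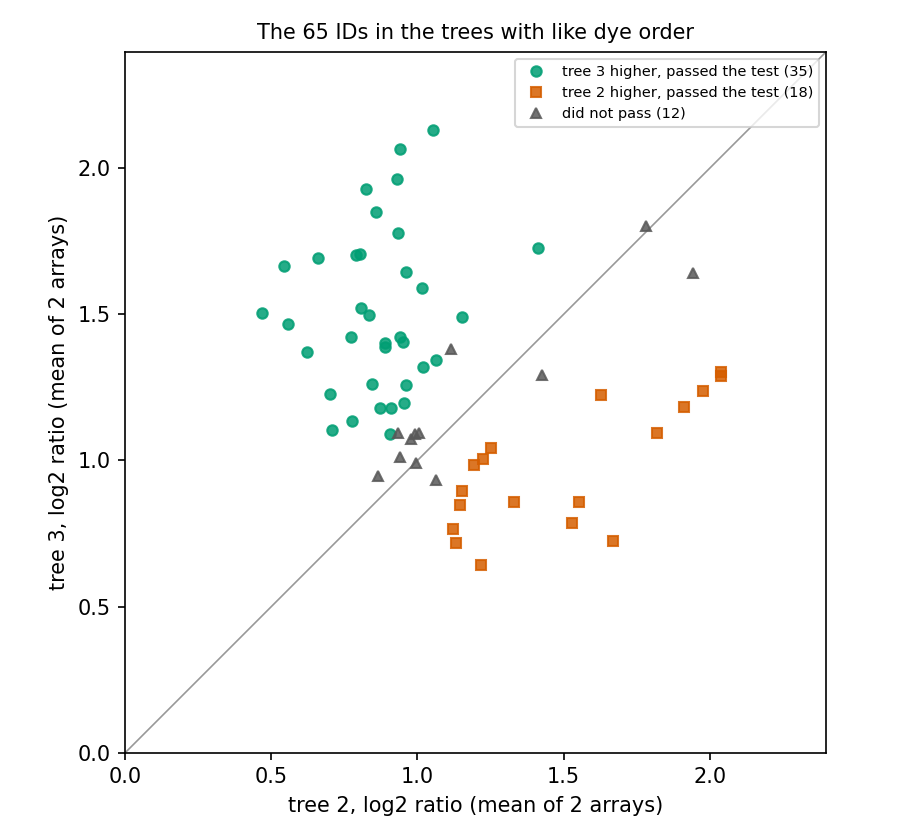
Log2 ratio in tree 3 (vertical axis) against tree 2 (horizontal axis) for the 65 IDs, each the mean of 2 technical arrays; symbols show whether and in which direction limma's test of the difference passed, and the line marks equal ratios. The 35 IDs that passed with tree 3 higher lie above the line and the 18 that passed with tree 2 higher lie below it, and 12 did not pass.

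For tree 1 the direction of the difference depended on the scale of the arrays. With the deposited values, the ratio was higher in tree 1 than in tree 2 at 36 members (55.4%) and lower at 6 (9.23%), where 33.1% and 26.7% of all IDs passed in these directions (limma, adjusted p under 0.05 over 4224 IDs). Against tree 3, tree 1 was higher at 24 members (36.9%) and lower at 15 (23.1%), where 24.3% and 26.3% of all IDs passed. The 298 IDs that were positive on all arrays with means from 0.5 to under 1 were read beside the members. Among these 298, tree 1 was higher than tree 2 at 62.1% and lower at 12.1%. Against tree 3, it was higher at 41.3% of them and lower at 19.8%, so this lean was not particular to the members. Once all arrays were brought to one median absolute ratio, tree 1 was higher than tree 2 at 9 members and lower at 30, where 28.6% and 22.8% of all IDs passed in these directions. It was then higher than tree 3 at 1 member and lower at 43, where 17.6% and 23.2% of all IDs passed. The members' medians moved from 1.33, 0.98 and 1.26 in trees 1, 2 and 3 to 1.02, 1.12 and 1.45. The scaling multiplied the ratios of trees 2 and 3 by nearly the same factor, 1.14 and 1.15, against 0.763 for tree 1, so it is no check of the comparison between trees 2 and 3. The order of tree 1 among the trees is therefore not settled by these values, and its dye order cannot be told apart from the tree.

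Single members with a distinct value in tree 1 were read under both scales. Q11K24, the member at which tree 1 exceeded the next tree by most with the deposited values, had log2 ratios of 1.80 and 1.66 in tree 1, 0.999 and 0.823 in tree 2, and 1.14 and 1.21 in tree 3. Its arrays in tree 1 lay above the other 4 arrays without overlap. At one median absolute ratio, however, its means in trees 1, 2 and 3 were 1.32, 1.04 and 1.36, and tree 1 was no longer the highest. Q2O5, singled out after its values were seen as the lowest member in tree 1, showed the opposite pattern, with 0.417 and 0.415 in tree 1, 1.40 and 1.45 in tree 2, and 1.28 and 1.30 in tree 3. The difference of tree 2 minus tree 1 at Q2O5 was 1.01 (limma adjusted p = 2.91e-05), and tree 1 was also the lowest at one median absolute ratio, with 0.32, 1.62 and 1.49. Q2O5 had the lowest ratio of any member on any array, although its mean of 1.04 ± 0.55 (SD, n = 3 trees) met the rule.

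An array ID names 1 of 11 plates and, by a letter and a number, a well in 1 of 16 rows and 1 of 24 columns, and this position took no part in the rule. The members were found on all 11 plates. Plates 1, 4 and 5 held 9 members each (2.34% of their IDs), plate 11 held 8, plates 6 and 8 held 7 each, and plate 7 held 1 (0.260%). The median ratio of all IDs on a plate ran from -0.083 on plate 2 to 0.068 on plate 8. On plate 1, 8 of the 9 members passed the test between trees 2 and 3 with the higher ratio in tree 3 and 1 with the higher ratio in tree 2, where 17.2% and 8.07% of all IDs of that plate passed in these directions. On plate 4, 1 of 9 members passed with tree 3 higher and 5 with tree 2 higher, where 17.7% and 7.29% of its IDs passed. On plate 10, with 5 members, the counts were 1 and 4, where 20.8% and 10.4% of its IDs passed. After each plate was recentred within each array, 32 members passed with the higher ratio in tree 3 and 19 with the higher ratio in tree 2. With the deposited values these were 35 and 18. The shares of all IDs were not read for the recentred plates. These counts are small, and the differences between plates were not tested.

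**Figure D4:**
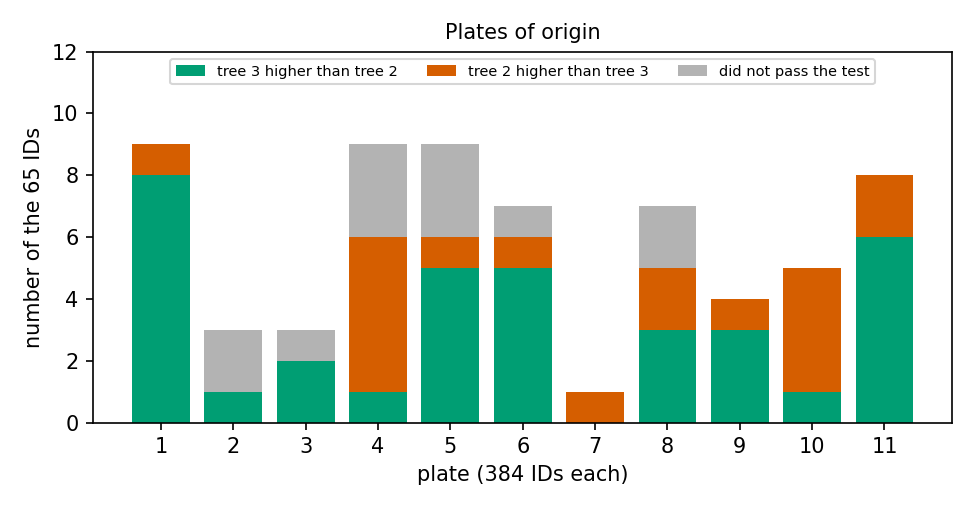
Number of the 65 IDs (vertical axis) on each of the 11 plates (horizontal axis), with colours for the direction of the difference between trees 2 and 3 in limma's test. Plate 1 holds 9 IDs, of which 8 had the higher ratio in tree 3, and plate 10 holds 5, of which 4 had the higher ratio in tree 2.

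Within plates, the members were spread over all 16 rows, with 2 to 7 in a row of 264 IDs. Columns 1 to 12 held 41 members (1.94% of their IDs) and columns 13 to 24 held 24 (1.14%). By odd and even rows and columns, the 4 classes of wells held 15, 16, 16 and 18 members. There were 5 pairs of members in touching wells, 10 IDs in all. The pair Q11J3 and Q11J4 shared a row in neighbouring columns and had opposite profiles: tree 3 was the highest tree at Q11J3, with 1.96, and the lowest at Q11J4, with 1.30. The pair Q1K5 and Q1L6 was alike, with the lowest ratio in tree 2 at both, 0.47 and 0.77, and the highest in tree 3, 1.504 and 1.424. Whether members in the same or in different wells carry clones of one transcript was not tested, because no sequences were used here.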

How the data were processed

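The deposited data hold 1 value for each of 4224 IDs on 6 arrays, with none missing, read here as a log2 ratio of both channels. The log base, background correction, within-array normalization and spot filters were not given in the sources used here. Log2 was assumed, as the tools named in the submitters' processing notes (R 2.7.1 with limma 2.14.5) give ratios on that scale. Technical arrays were averaged within each tree. The mean over trees against 0 and the differences between trees (F test and pairwise, against the spread of technical arrays) were fitted over all IDs in limma 3.58.1 (lmFit, eBayes; R 4.3.3) with Benjamini-Hochberg adjustment and a threshold of 0.05. Both fits were tested on simulated data. No filter was applied. Rescaling to one median absolute ratio and recentring were applied only where the text names them. The members, tests and alternatives were chosen with earlier results of these data known. Named IDs are the 2 largest means, the 2 smallest ranges over trees, the ID standing out most in each tree, the largest technical difference, and the IDs beside the threshold. The planned gene lists could not be applied without gene names. The number of arrays limits the precision. Figures were drawn with matplotlib 3.10.9.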

Additional observations from a re-analysis of the deposited data

How the results depend on the processing

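The group of 65 IDs grew to 130 with a mean of at least 0.8 and shrank to 11 with a mean of at least 1.5. It shrank to 16 with at least 1 in every tree, and to 0 with tree 1 turned. That turn removes the 65 by the rule itself, and no other ID took their place. Recentring arrays or plates, one median absolute ratio, the median of trees, dropping the sign condition or either technical array alone gave 65 to 74 IDs, and 54 of the 65 were kept in all of these. Leaving out 1 tree gave 59 to 95 IDs. With 1 tree left out, differences between trees were called at 39 to 50 members and at 1136 to 2405 IDs, against 59 and 2850, where only 1 pair of trees remained, and positive means at 265 to 570 IDs against 517, lowest without tree 1. At one median absolute ratio, tree 1 was above tree 2 at 9 members and below it at 30, against 36 and 6, and above tree 3 at 1 and below it at 43, against 24 and 15. Trees 2 and 3 then chose 97 IDs in place of 60, all 97 above 0 in tree 1 but 34 (35.1%) at least 1 in place of 43 of 60 (71.7%), and 41 in place of 24 IDs were at least 1 in the unused tree 2. The remaining counts stayed within 1.5 times of those reported. The means of the named IDs moved by less than their SD over trees with plates recentred, at one median absolute ratio and with either technical array alone. Leaving out 1 of 3 trees cannot move a mean by that SD, so nothing is read from those runs for the named IDs. The cause of these changes was not tested. Without single-channel intensities, signal over background is unknown here.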

Other observations

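The 298 IDs that were positive on all 6 arrays with a mean log2 ratio from 0.5 to under 1 also differed between trees 2 and 3. The ratio was higher in tree 3 at 139 of them (46.6%) and higher in tree 2 at 32 (10.7%) (limma, adjusted p under 0.05 over 4224 IDs). Their median was 0.53 in tree 2 and 0.70 in tree 3. The share with the higher ratio in tree 2 was 27.7% among the 65 IDs with larger means, and this difference in shares was not tested. The 45 IDs with a mean of -1 or less and negative values on all 6 arrays had a median range over trees of 0.95 on the log2 scale, against 0.60 among the 65 positive IDs, also untested.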
